A study of Rattus norvegicus with 17 samples.

Results

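Spinal cord neurons that had been axotomised and did not regenerate were compared with traced neurons that had not been axotomised. The comparison rests on 10 of the 17 arrays of the study, chosen by their titles: 7 non-regenerating arrays and 3 traced arrays. The traced neurons came from rats MM15, MM18 and MM19, and the non-regenerating neurons from 7 others, MOON265, MOON266, MM11, MM13, MM14, MM16 and MM17, with 1 array per rat. The groups share no rat, so the comparison was made between animals and was unpaired. It asks which genes differ between axotomised neurons that did not regenerate and neurons that were not axotomised. Axotomy, the lack of regrowth and other differences between the rats cannot be told apart in it. The 7 regenerating arrays come from the same rats as the non-regenerating ones and were left out of the tests.

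All groups were made of neurons marked from their axons with a retrograde tracer and cut out by laser from unfixed 10 µm sections of the cord. Each sample pooled 1000 such neurons of 1 rat, and its RNA was amplified in repeated rounds before labelling. The traced array MM15 carries the words "high yield replicate" in its title. The labels state no treatment, genotype or transgene for either group beyond the axotomy, and the strain, age, sex, lesion and time after axotomy are not given in the sources used here. A sample is a pool of mixed neuron types with whatever tissue lay in the captured area, so fewer cells of a type and less RNA per cell cannot be told apart in any value below.

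When an axon is cut, its neuron receives a retrograde signal and switches on a set of injury genes, among them the transcription factors Atf3 and Jun, the growth cone protein Gap43 and neuropeptides such as galanin and VIP. Many also lower their transmitter receptors and synaptic genes. Around an injured cell body, microglia multiply and wrap the soma, display Fc and complement receptors and take up material into lysosomes, and astrocytes make more of the filament protein GFAP. Neurons of the central nervous system mount this response less fully than those of peripheral ganglia, and few of them regrow an axon.

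The values are signals per probe set, the set of short probes that reads 1 transcript. They are linear intensities that the authors scaled to a trimmed mean of 200 to 200.1 on every array. Differences are given as non-regenerating minus traced, on the scale log2(signal + 16), with the standard error (SE) of limma, a linear model with a spread moderated across probe sets. This scale understates the change of dim genes. A probe set is called where its Benjamini-Hochberg adjusted p over all 18625 tested probe sets is under 0.05. With 7 and 3 arrays, the precision of these differences is limited.

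The arrays differed in ways that bear on direction. The median signal was 63.7 to 76.0 on the traced arrays and 33.9 to 76.9 on the non-regenerating ones (exact permutation p = 0.142, adjusted over 5 array measures 0.514). The arrays of the rats MOON265 and MOON266, with medians of 35.6 and 33.9, were the lowest, and rats of that name are found on the axotomised side alone. Non-regenerating MM17 and traced MM15 stood apart from the others, with median correlations of 0.855 and 0.835 with the other 9 arrays and with 12.4% and 11.8% of the signal in the 100 brightest probe sets. The other arrays had 3.86% to 7.26%.

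The labelled cell type was checked against its markers. Snap25, a protein of neurotransmitter release, gave 4071, 3834 and 11154 in traced MM18, MM19 and MM15 and 2850 to 10418 in the non-regenerating arrays. Slc17a6, the vesicular glutamate transporter of many spinal neurons, gave 3393, 3424 and 3647 in the traced arrays and 2319 to 4804 in the others (log2 difference 0.11, SE 0.24, and -0.027 under quantile normalization). Gad1, the GABA-making enzyme, lay between 2862 and 13281 across both groups. Chat, the enzyme of acetylcholine synthesis that marks motor neurons, was dim, at 26.7 to 72.2 in the traced and 25.6 to 70.2 in the non-regenerating arrays. Motor neuron markers had a median difference of 0.02 over 13 members and sensory ganglion markers -0.46 over 8. Rbfox3, a marker of neurons in general, gave 287.8 to 424.4 in the traced and 281.7 to 506.1 in the non-regenerating arrays of MM rats. In MOON265 and MOON266 it gave 98.2 and 79.6 (log2 difference -0.35, SE 0.48, over all arrays, and 0.20 among MM rats alone). Of 19 measured general neuron markers, 0 were called and 13 were below 0. At an unadjusted p under 0.05 in limma, 2 were lower (Syn1 and Syt1) and 0 higher, against 7.61% and 2.68% of all probe sets. The summed signal of the 19 was 25511 to 69940 in the non-regenerating and 32823 to 68931 in the traced arrays. Neuronal RNA was thus present on all 10 arrays, over overlapping ranges in the groups. Markers of glia were present as well: Mbp, a myelin protein, gave 3554 to 4237 in the traced arrays and Gfap, the filament protein of astrocytes, 955 to 1384.

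Across the 18625 tested probe sets, 8 were called, all higher in non-regenerating neurons, which is 0.0430% of those tested. They were Cxcl13, Plek, Fcrl2, Fcgr2b, Lgals3, Kazn, Pik3cd and a probe set without a gene name. None was called lower. The brightness filter used the mean over all 17 arrays, of which 3 were traced. Probe sets bright only in axotomised neurons thus passed it more readily than those bright only in traced ones. Without the filter 5 were called higher and 1 lower, and 5 of the 8 calls were kept. At an unadjusted p under 0.05 in limma, 499 (2.68%) were higher and 1417 (7.61%) lower. The groups did not overlap in 204 probe sets (1.10%) that were higher and 273 (1.47%) that were lower in every non-regenerating array.

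The balance of directions depended on how the arrays were scaled and on which arrays were used. As deposited, the median difference over all tested probe sets was -0.12 and 26.0% of the probe sets with an unadjusted p under 0.05 were higher. With each array centred on its own median the median difference was 0.24 and that share 72.2%. Under quantile normalization they were 0.01 and 52.8%. Among MM rats alone, as deposited, 507 were higher and 487 lower at that p. Without traced MM15 these counts were 292 and 351. In all 3 scalings 466 probe sets were higher and 500 lower at an unadjusted p under 0.05, and 118 were higher and 68 lower without overlap between the groups. Differences below are therefore read against -0.12 as deposited and 0.24 with centred arrays.

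The largest difference was in Cxcl13, a chemokine that guides B cells into lymphoid follicles and that neurons and glia can make after injury. Its signal was 34.5, 60.1 and 52.9 in traced MM18, MM19 and MM15. In the non-regenerating arrays it was 1990 at the lowest, 2346 at the median and 3831 at the highest. The lowest non-regenerating array was thus far above the highest traced one. The mean was 2656 ± 660.4 (SD, n = 7) against 49.2 ± 13.2 (SD, n = 3). The log2 difference was 5.34 (SE 0.24, 95% interval 4.82 to 5.87), with an adjusted p of 4.37e-08 in limma. That is a rise of 40.6-fold in signal + 16, while the ratio of the mean signals was 54.0. Cxcl13 was called in all 24 alternative settings, and among MM rats alone the difference was 5.45. Cxcr5, the receptor of Cxcl13, was not called, with signals of 197 to 386 in the traced and 68.3 to 256 in the non-regenerating arrays (log2 difference -1.03, adjusted p = 0.472 in limma).

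The RefSeq promoter table (build GRCr8) holds a window for 2 of the 7 named called genes, Cxcl13 and Pik3cd. That of Cxcl13, the gene with the largest rise, is chr14:13917921-13918170 on the minus strand. It is shown with its TATA motif in capitals, a motif added to the search after the sequence had been seen.

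Cxcl13: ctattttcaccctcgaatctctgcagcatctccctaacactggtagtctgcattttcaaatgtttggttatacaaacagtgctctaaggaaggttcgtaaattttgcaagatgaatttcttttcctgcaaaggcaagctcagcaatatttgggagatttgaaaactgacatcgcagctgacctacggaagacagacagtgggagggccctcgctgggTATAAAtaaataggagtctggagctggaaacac

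The letters TATAAA begin 33 bases before the start of the gene and were found in 13.1% of the 27457 promoter windows of the table, on either strand. The windows of Cxcl13 and Pik3cd held none of the 6 other motifs searched on both strands: GAGGAA (the core bound by the leukocyte factor PU.1, in 23.2% of all windows), TGANTCA (AP-1, the motif of Fos, Jun and Atf3 family proteins, 6.36%), TGACGTCA (CRE, 1.70%), TTCNNNGAA (STAT, 7.52%), the NF-kB motif (1.28%) and the interferon element (3.29%). These letters are not in those windows, which says nothing about the factors.

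Plek encodes pleckstrin, a protein kinase C substrate of platelets and leukocytes. It gave 249.9, 174.5 and 168.7 in traced MM18, MM19 and MM15, and 750.6 at the lowest, 1054 at the median and 1395 at the highest in the non-regenerating arrays. The groups lay clearly apart. Plek rose by a log2 difference of 2.30 (SE 0.23), 4.93-fold in signal + 16, with an adjusted p of 0.000745 in limma. It was called in all 24 alternatives, as was Cxcl13.

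Fcrl2, a relative of the Fc receptors, gave 111.8, 129.0 and 110.0 in the traced arrays and 362.7, 519.2 and 835.2 at the lowest, median and highest non-regenerating array. It rose by 2.10 (SE 0.25, adjusted p = 0.00379 in limma), and was called in 23 of 24 alternatives. Fcgr2b, the inhibitory receptor for the constant part of IgG, gave 40.9, 57.6 and 14.1 in traced MM18, MM19 and MM15. The non-regenerating arrays gave 155.2, 204.6 and 347.8 at the lowest, median and highest. It rose by 2.34 (SE 0.34, adjusted p = 0.0336 in limma), and was called in 14 of 24 alternatives. In both genes every non-regenerating array was above every traced one.

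Lgals3, which encodes galectin-3, a sugar-binding protein of activated phagocytes, gave 70.9, 125.1 and 69.3 in traced MM18, MM19 and MM15 and 230.2, 315.3 and 396.2 at the lowest, median and highest non-regenerating array. It rose by 1.69 (SE 0.25, adjusted p = 0.0336 in limma) and was called in 14 of 24 alternatives. Pik3cd encodes the catalytic delta subunit of phosphoinositide 3-kinase, found mainly in leukocytes. It gave 39.0, 21.2 and 39.3 in the traced arrays and 112.4, 132.0 and 203.3 at the lowest, median and highest non-regenerating array. It rose by 1.69 (SE 0.27, adjusted p = 0.0424 in limma), while a second, dimmer probe set of Pik3cd gave -0.59 (SE 0.36), the other way. Its call held in 9 of 23 alternatives in which it was tested.

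Kazn, which encodes kazrin, a protein of cell junctions and the cytoskeleton, gave 10.9, 12.4 and 16.3 in traced MM18, MM19 and MM15 and 53.9, 81.0 and 94.9 at the lowest, median and highest non-regenerating array. It rose by 1.68 (SE 0.26, adjusted p = 0.0359 in limma), but 2 other probe sets of Kazn gave 0.07 and -0.64. The unnamed probe set 1385399_at rose by 1.90 (SE 0.29, adjusted p = 0.0359 in limma), from 18.9, 12.7 and 8.0 in the traced arrays to 69.2, 87.4 and 171.4 at the lowest, median and highest. In both, most traced signals were below the 16 added before the log, so the size of these differences depends on that number. Their calls held in 11 and 9 of 23 alternatives.

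**Figure D1:**
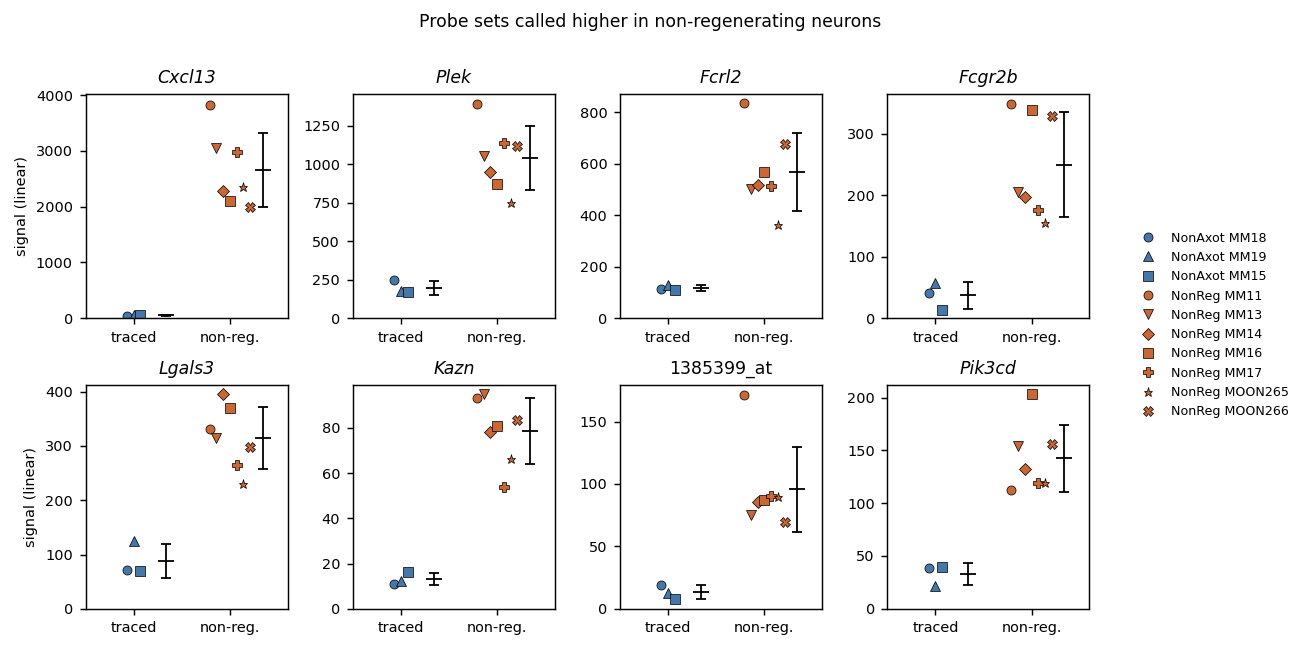
Signal (linear scale) of the 8 called probe sets on each array, with the 3 traced arrays in blue, the 7 non-regenerating arrays in orange, 1 symbol per rat, and the mean and SD of each group beside the points. In every panel all non-regenerating arrays lie above all traced arrays, from 1990 to 3831 against 34.5 to 60.1 in Cxcl13.

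The number of calls depended on single arrays. Without 1 array in turn, 2 to 33 probe sets were called higher and 0 to 4 lower. Of the 8 calls, 3 were kept without non-regenerating MM11, MM13, MM14, MM16 or MOON266 and without traced MM15, 2 without traced MM18, and 5 without traced MM19 or non-regenerating MOON265. Without non-regenerating MM17 all 8 were kept among 33 higher calls. With each array weighted by its spread around the fit, 553 were called higher and 1887 lower. The weights were 4.69, 2.82 and 0.34 for traced MM19, MM18 and MM15, so among the traced arrays that fit rests mostly on MM19 and MM18. Among the MM rats alone 3 of the 8 were kept.

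Regenerating neurons of the same rats give the levels of these genes in the third group of the study. Cxcl13 was 961 to 2888 there, Plek 578 to 1241, Fcrl2 431 to 1059, Lgals3 275 to 739, Fcgr2b 154 to 537, Pik3cd 86.7 to 197 and Kazn 43.1 to 133. The unnamed 1385399_at was 4.2 to 235.8 there, so its lowest regenerating array was below the lowest traced one. These arrays share their rats with the non-regenerating ones and would share the traced controls, so the values are set side by side and no overlap is drawn from them.

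The next higher genes by p did not pass, at adjusted p of 0.0508 to 0.0983 in limma. In each of them every non-regenerating array was above every traced one, which picking genes by small p favours. Blnk, an adaptor of B cell receptor signalling, gave 220.3, 206.1 and 214.5 in the traced arrays and 435.8 to 759.7 in the others (log2 difference 1.34, SE 0.22). Arhgap25, a Rac-regulating protein of phagocytes, gave 1.79 (SE 0.29), with 13.3 to 40.1 in the traced arrays and 71.6 to 148.0 in the others. Cxcl16, a chemokine and scavenger receptor, gave 1.97 (SE 0.33), with 22.6 to 116.4 in the traced arrays and 206.1 to 346.0 in the others. Abca1, which exports cholesterol from cells, gave 1.26 (SE 0.21), with 2 dimmer probe sets at 0.14 and -0.35.

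Mt2A, a zinc-binding metallothionein, had a log2 difference of 1.71 (SE 0.29), with 582.0, 676.6 and 940.5 in the traced arrays and 1756 to 4672 in the others. Gfap gave 1340, 1384 and 955.4 in traced MM18, MM19 and MM15 and 2107, 3312 and 3943 at the lowest, median and highest non-regenerating array (1.36, SE 0.24). Tgfbr1, a receptor kinase for TGF-beta, gave 1.32 (SE 0.23) and Rnaset2, a lysosomal ribonuclease, 1.47 (SE 0.27).

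Of these 15 highest-ranked genes, 10 have a promoter window in the RefSeq table, and 2 of these hold the PU.1 core, against 23.2% of all windows. Arhgap25 has it on both strands within 50 bases of its start, as its window shows (GRCr8, chr4:121532294-121532543, minus strand, with the cores in capitals, GAGGAA on the strand of the gene and TTCCTC as its reverse complement).

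Arhgap25: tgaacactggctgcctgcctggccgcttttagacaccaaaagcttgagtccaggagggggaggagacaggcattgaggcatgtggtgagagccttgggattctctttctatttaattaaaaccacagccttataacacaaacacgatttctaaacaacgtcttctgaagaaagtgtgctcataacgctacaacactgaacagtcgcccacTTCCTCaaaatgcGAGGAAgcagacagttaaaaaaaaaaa

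The cores begin 27 and 40 bases before the start. In Cxcl16 1 core begins 191 bases before it, and the window of Mt2A holds an AP-1 motif, which reads the same on both strands, 237 bases before its start. No match of 1 motif overlapped that of another. The window of Blnk and those of the other genes with one held none of the 6 motifs.

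**Figure D2:**
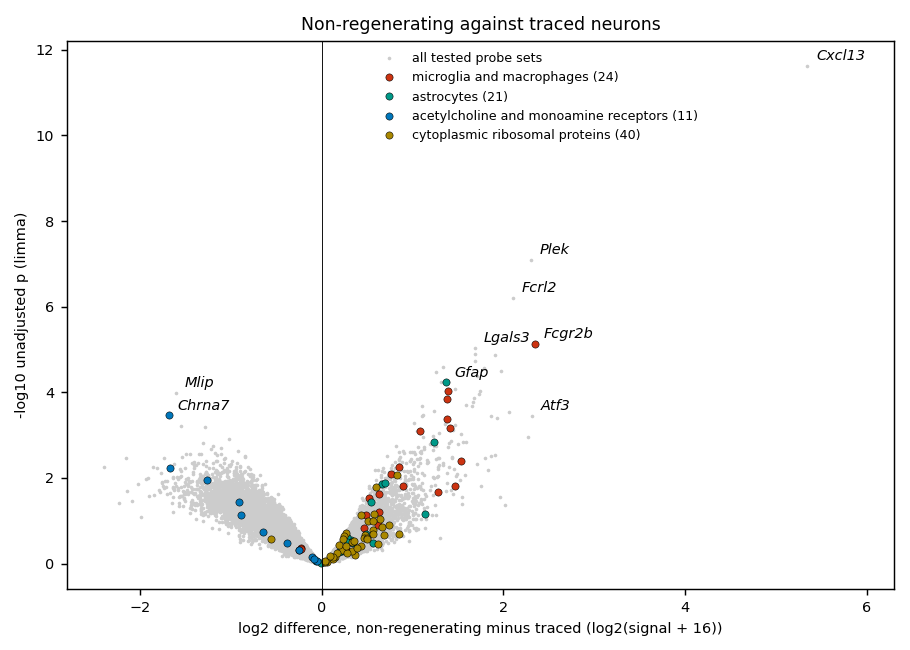
Log2 difference (non-regenerating minus traced, log2(signal + 16)) against -log10 of the unadjusted limma p for the 18625 tested probe sets, with the measured members of 4 lists in colour. Cxcl13 lies apart at 5.34, microglia markers lie mostly to the right and acetylcholine and monoamine receptors to the left, Chrna7 at -1.68.

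Genes of microglia and macrophages formed the group with the highest median of all lists described. Of 30 markers, 24 were measured, and 21 of these were higher, with a median difference of 0.70 and quartiles of 0.42 and 1.38, against -0.12 over all probe sets. With centred arrays the median was 1.06, among MM rats alone 0.72. Of the 24, 1 was called (Fcgr2b), 14 had an unadjusted p under 0.05 in the higher direction and 0 in the lower one, and in 10 the groups did not overlap. Over all probe sets the shares were 2.68% and 1.10%. The 24 markers summed to 7844 to 9133 in the traced arrays and to 13116 to 21873 in the non-regenerating ones, so the sums did not overlap.

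C1qa, a chain of the complement starter C1q made by microglia, gave 1.38 (adjusted p = 0.12 in limma), with 378 to 483 in the traced and 672 to 1767 in the non-regenerating arrays. Laptm5, a lysosomal membrane protein of leukocytes, gave 1.39 (adjusted p = 0.0986 in limma). Ly86, a partner of a Toll-like receptor relative, gave 1.38 and Lyz2, lysozyme, 1.41. P2ry12, the ADP receptor that marks resident microglia, gave 1.08, with 205 to 429 in the traced arrays and 479 to 857 in the others.

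The markers differed among themselves. Aif1, the calcium-binding protein used to stain microglia, gave 90.7, 82.0 and 13.6 in the traced arrays and 70.6, 162.6 and 493.2 at the lowest, median and highest non-regenerating array. Its groups overlapped, since the MOON rats were within the traced range (log2 difference 1.47, SE 0.53). Cd68, a lysosomal protein of phagocytes, gave 227.8, 224.4 and 319.8 against 331.8 to 737.5, with no overlap (0.85, SE 0.26). Tmem119, another resident microglia marker, gave 0.62 and Csf1r, the receptor that keeps microglia alive, 0.49. Mrc1, a marker of perivascular macrophages, gave -0.22, and 0.14 with centred arrays. Fcgr2b is in this list but adds little to its sums, with means of 249.9 in the non-regenerating and 37.5 in the traced arrays. Other called genes, such as Plek, are leukocyte genes outside the list. The part of added microglial RNA in the called genes was not tested.

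**Figure D3:**
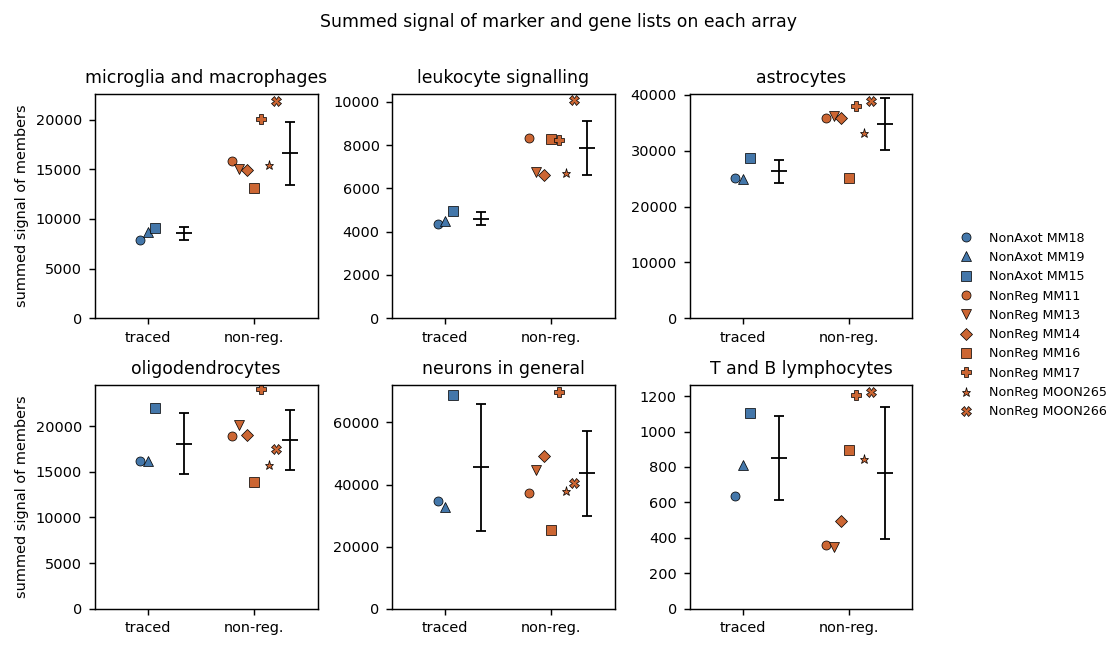
Summed signal (linear scale) of the measured members of 6 lists on each array, with traced arrays in blue, non-regenerating arrays in orange, 1 symbol per rat, and mean and SD beside the points. Sums of microglia and of leukocyte signalling genes do not overlap between the groups, while those of neurons, oligodendrocytes and lymphocytes do.

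Leukocyte signalling genes had a median difference of 0.52 over 28 measured members (0.87 with centred arrays). Of these, 2 were called, Plek and Pik3cd, 13 were higher and 1 lower at an unadjusted p under 0.05, and 6 did not overlap in the higher direction. Over all probe sets the shares were 0.0430% called, 2.68% higher, 7.61% lower and 1.10% without overlap in the higher direction, and the counts of the lists that follow are read against the same shares. Besides the genes already given, Dock8, an exchange factor of migrating leukocytes, gave 1.43 and Ptprc, the common leukocyte antigen CD45, 1.53, with 77.2 to 251.9 in the traced arrays and 207.9 to 1205 in the others. Other members did not go the same way: Fgr, a Src family kinase, gave -1.10, and Syk, the kinase downstream of Fc receptors, -0.59. The list's sum was 4361 to 4934 in the traced and 6620 to 10071 in the non-regenerating arrays. It shares 4 members with the microglia list.

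Among 10 measured Fc receptors and relatives, 2 were called and 5 were higher and 0 lower at an unadjusted p under 0.05, with a median of 0.45. Clec7a, the glucan receptor dectin-1 of phagocytes, gave 182 to 358 in the traced arrays and 377 to 1277 in the others (1.44). Lilrb4, an inhibitory leukocyte receptor, gave 1.02, and Fcer1g, the signalling chain that Fc receptors share, 0.89, with signals of 1534 to 2694 and 2170 to 7125. Fcrla, an intracellular relative of the Fc receptors found in B cells, gave -0.91.

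The complement list was mixed, with a median of 0.24, 5 members higher and 2 lower at an unadjusted p under 0.05, and 4 of 14 not overlapping in the higher direction (2.68%, 7.61% and 1.10% over all probe sets). C3, the central component, gave 1.83, with 53.8 to 83.8 in the traced arrays and 119.3 to 1334 in the others, a wide range among the non-regenerating rats. C1s, a protease of C1, gave 0.64. Itgb2, the integrin chain of complement receptors, gave 0.63. Masp1, a protease of the lectin pathway, and Cfd, of the alternative one, gave -0.69 and -0.80. None was called, and the 2 that were lower at an unadjusted p under 0.05 did not reach it with centred arrays, where the count was 0.

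Antigen presentation and interferon genes had a median of 0.20 over 26 members, with 0 called, 7 higher and 0 lower at an unadjusted p under 0.05. Cd74, which escorts MHC class II molecules, gave 1.08, with 32.6 to 52.0 in the traced arrays and 69.4 to 176.3 in the others. The immunoproteasome subunits Psmb8, Psmb9 and Psmb10 gave 1.03, 1.33 and 0.55. Irf9, a factor of interferon signalling, gave 0.73 and B2m, the light chain of MHC class I, 0.56, both without overlap.

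Galectins, annexins and phagocyte genes had a median of 0.39 over 26 members, of which 1 was called (Lgals3), and 7 were higher and 1 lower at an unadjusted p under 0.05. Anxa3, a phagocyte annexin, gave 1.36, with 282 to 475 in the traced arrays and 480.1 to 1462 in the others. S100a4, a calcium-binding protein of motile cells, gave 1.45, Plin2, the coat protein of lipid droplets, 0.72, and Axl, a receptor for apoptotic cells, 0.59. Spp1, which encodes osteopontin, was the 1 lower at that p, with -0.64. Lysosome genes had a median of 0.44 over 31 members, 27 of them above 0. Among the 31, 0 were called, and 7 were higher at an unadjusted p under 0.05. Npc2, which carries cholesterol out of lysosomes, gave 1.11, with 1089 to 1903 in the traced arrays and 2539 to 4027 in the others, and the proteases Ctsh and Ctss 1.22 and 0.77. Without traced MM15 the median of the lysosome list was 0.25, against -0.17 over all probe sets.

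Chemokines and cytokines did not go one way. Over 25 measured members, Cxcl13 and Cxcl16 included, the median was -0.24 as deposited and 0.12 with centred arrays, and 9 were higher and 16 lower. Ccl2, which draws monocytes, gave 1.10 but was dim, at 4.9 to 30.4 in the traced and 24.1 to 91.5 in the non-regenerating arrays. Tnf, an inflammatory cytokine, gave 0.97 without overlap, with 31.3 to 37.2 in the traced arrays and 40.5 to 178.4 in the others. Csf1, the growth factor of microglia that injured neurons can make, gave -0.98, with 376.8 to 533.5 in the traced and 128.3 to 514.8 in the non-regenerating arrays. Of 16 receptors 0 were called. Besides Tgfbr1, Ifngr1, a chain of the interferon gamma receptor, gave 0.76.

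Astrocyte markers had a median of 0.33 over 21 members (0.69 with centred arrays), with 19 higher, 0 called, 5 higher and 0 lower at an unadjusted p under 0.05, and 3 without overlap. Their sum was 24980 to 28661 in the traced arrays and 25048 to 38974 in the non-regenerating ones, and of the latter MM16 alone was within the traced range. Besides Gfap, Fabp7, a fatty acid binding protein of radial glia and reactive astrocytes, gave 1.23, with 442 to 673 in the traced and 904 to 3036 in the non-regenerating arrays. Vim, the filament vimentin, gave 0.70, Slc1a3, a glutamate transporter, 0.67, and S100b 0.54. Aqp4, the water channel of astrocyte endfeet, gave 0.33 (SE 0.29). Among 25 reactive astrocyte and matrix genes the median was -0.04 (0.32 with centred arrays), and Hapln1 and Acan, parts of the perineuronal net, gave -1.04 and -0.92.

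Markers of the other non-neuronal cell types had medians below 0 as deposited and, lymphocytes and ependyma aside, above 0 with centred arrays. Oligodendrocytes had a median of -0.08 over 16 members, and their sums overlapped (16155 to 21949 in the traced, 13874 to 24052 in the non-regenerating arrays). Mbp gave 0.14, and -0.0048 under quantile normalization. The medians were -0.11 for endothelium, -0.24 for mural cells, -0.21 for fibroblasts and meninges, -0.05 for Schwann cells and -0.48 for lymphocytes, and 0 members of these lists were called. Pecam1, a junction protein of endothelium, gave -0.92, Cldn5, a tight junction protein, -0.47, and Col1a1, a fibroblast collagen, -0.48. Of the lymphocyte markers, 3 were lower at an unadjusted p under 0.05, among them the B cell marker Ms4a1, at 141.9, 161.6 and 194.5 in the traced arrays and 17 to 181.4 in the others. Cd3e, a chain of the T cell receptor, gave 16, 18.8 and 39.8 in the traced arrays. It was at 2.9 to 3.9 in non-regenerating MM11, MM13 and MM14 but at 91.9, 233.5, 526.0 and 803.1 in MM16, MM17, MOON265 and MOON266. The group was thus split, and the difference did not pass (1.31, SE 1.09).

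**Figure D4:**
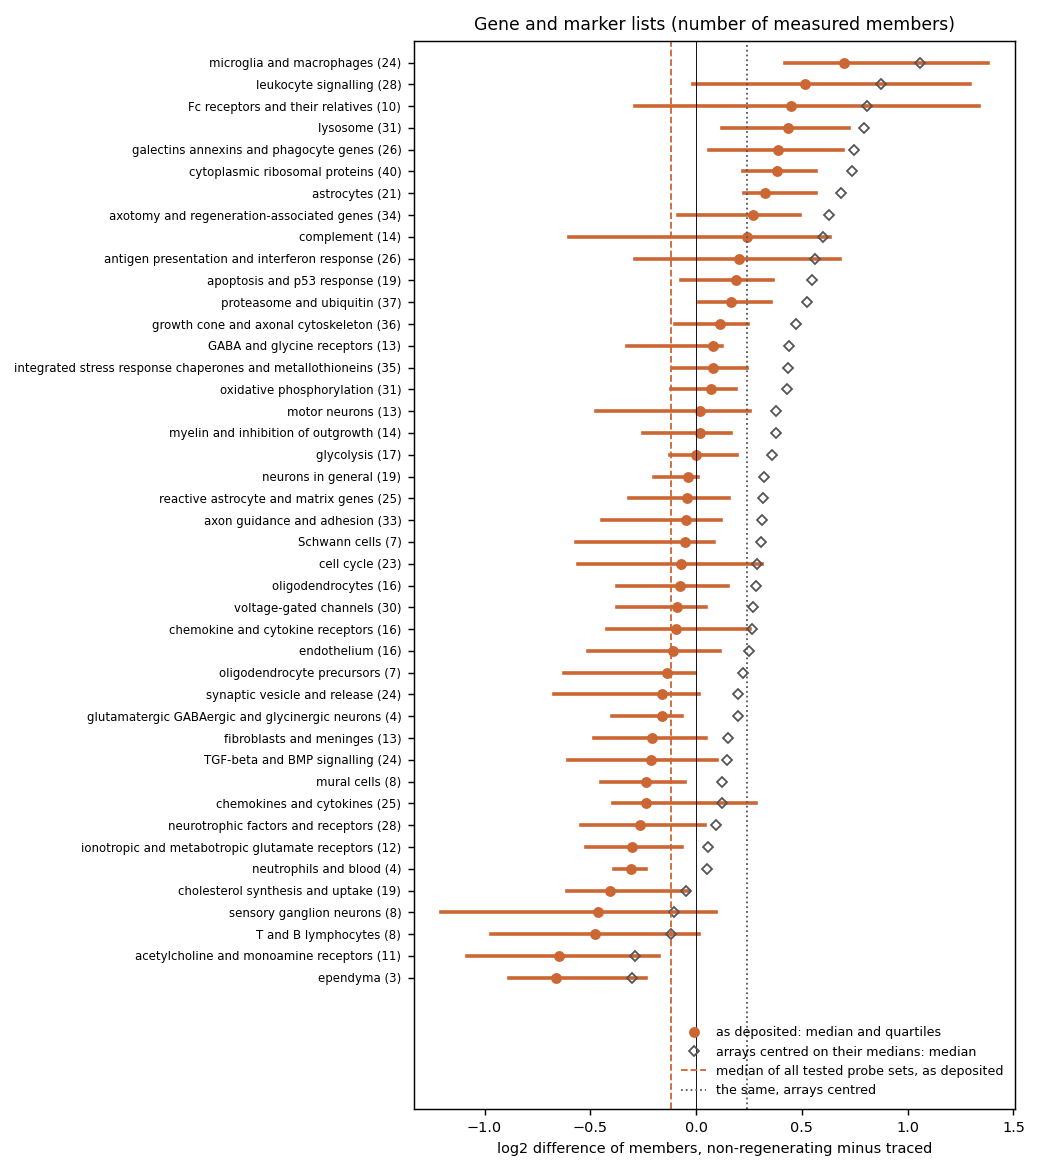
Median and quartiles of the log2 difference of each list's measured members (number in parentheses) with the arrays as deposited, and the median with arrays centred on their medians (open diamonds). Dashed and dotted lines mark the medians of all tested probe sets, -0.12 and 0.24; microglia markers have the highest median, and ependyma, with 3 members, and acetylcholine and monoamine receptors, with 11, the lowest.

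Genes known for the neuron's own response to axotomy had a median of 0.27 over 34 measured members, 22 of them higher, with 0 called, 6 higher and 2 lower at an unadjusted p under 0.05. Atf3, the transcription factor used as the mark of an injured neuron, gave 33.3, 150.2 and 113.8 in traced MM18, MM19 and MM15. In the non-regenerating arrays it gave 123.3 in MM16, 441.5 and 757.9 in MOON265 and MOON266, and 528.8, 572.3, 830.8 and 637.0 in MM11, MM13, MM14 and MM17. Non-regenerating MM16 was thus within the traced range, and the other 6 were above it. The log2 difference was 2.32 (SE 0.50), and it did not pass, with an adjusted p of 0.203 in limma. Summed signals of MM16 were the lowest of its group in several lists, among them general neuron markers (25511), astrocytes (25048), oligodendrocytes (13874) and microglia (13116).

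Of the neuropeptide genes, Gal, which encodes galanin, gave 166.0, 238.8 and 221.6 in the traced arrays and 284.0, 367.3 and 563.2 at the lowest, median and highest non-regenerating array, without overlap (0.85, SE 0.25). Vip gave 128.2, 781.8 and 444.6 in traced MM18, MM19 and MM15, and 503.3 to 3193 in the others, with MM11, MM16 and MM17 within the traced range (1.76, SE 0.64). Adcyap1, which encodes the peptide PACAP, gave 0.65 (SE 0.35) at its brightest probe set and 1.20 (SE 0.31) at a dimmer one. Fos, an immediate early factor, gave 0.98, with 236 to 465 in the traced arrays and 480.4 to 1151 in the others, and Cd44, a hyaluronan receptor, 0.84 (SE 0.34).

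For other members of the injury response the ranges of the groups overlapped. Jun, the partner of Atf3, gave 0.11 (SE 0.29), with 751, 823 and 460 in the traced and 501 to 1024 in the non-regenerating arrays, and 0.21 and -0.31 at 2 dimmer probe sets. Gap43 gave 0.38 (SE 0.47), with 1746 to 6913 and 1706 to 8842. Sprr1a, a protein of regenerating peripheral axons, gave 0.27 (SE 0.42), and Hspb1, a small heat shock protein, 0.39 (SE 0.27). Stat3, which carries cytokine signals from axon to nucleus, was 236.5 to 363.1 in the traced arrays and 362.2 to 428.2 in the non-regenerating arrays of MM rats, but 86.1 and 67.1 in those of MOON265 and MOON266. Its difference was -0.29 (SE 0.52) over all arrays, 0.074 with centred arrays and 0.33 among MM rats alone, and a second, dimmer probe set gave -1.09 (SE 0.35). Nrn1, a growth-promoting membrane protein, and the adhesion molecule L1cam gave -0.90 and -1.01.

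No probe set was called lower. The 15 lower genes with the smallest p among those lower in all 3 scalings had adjusted p of 0.101 to 0.472 in limma. Mlip, a lamin-interacting protein, gave 126.0, 68.9 and 119.7 in traced MM18, MM19 and MM15 and 12.5 to 42.8 in the non-regenerating arrays (-1.60, SE 0.30, and -1.25 with centred arrays). Chrna7, the alpha 7 subunit of nicotinic acetylcholine receptors, gave 157.5, 174.2 and 285.7 in the traced arrays and 26.0, 51.9 and 117.6 at the lowest, median and highest non-regenerating array (-1.68, SE 0.36, -1.32 with centred arrays). In both, every non-regenerating array was below every traced one. Lurap1l, an adaptor of cytoskeletal signalling, gave 719.1, 667.2 and 743.2 against 271.3 to 566.1 (-1.02, SE 0.26), and Sult4a1, a sulfotransferase of neurons, 1980, 1638 and 1899 against 804 to 1644 (-0.84, SE 0.24). In Lurap1l the non-regenerating arrays nearest the traced ones were MM16 and MM17, and in Sult4a1 MM17 overlapped.

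The other 11 of the 15 were Zdhhc19, Icam2, C9, Lca5, Rasgef1b, Kprp, Dtd2, Adam7, Uimc1, Susd6 and LOC102550045, with differences of -2.15 to -1.06. Most of them were dim, and some have second probe sets. Those of Icam2 (-0.73) and Uimc1 (-0.49) had the same sign with smaller differences, as had that of Dtd2 (-0.26). That of Susd6 was far brighter, with means of 669.7 in the non-regenerating and 393.3 in the traced arrays against 45.0 and 106.7 at the listed probe set. It gave 0.74 (SE 0.24), the other way. That of Rasgef1b, also far brighter with means of 2906 and 3015, gave -0.07. Several are genes of other tissues, such as C9, the last component of the complement pore, made in liver, and Adam7, of the epididymis.

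**Figure D5:**
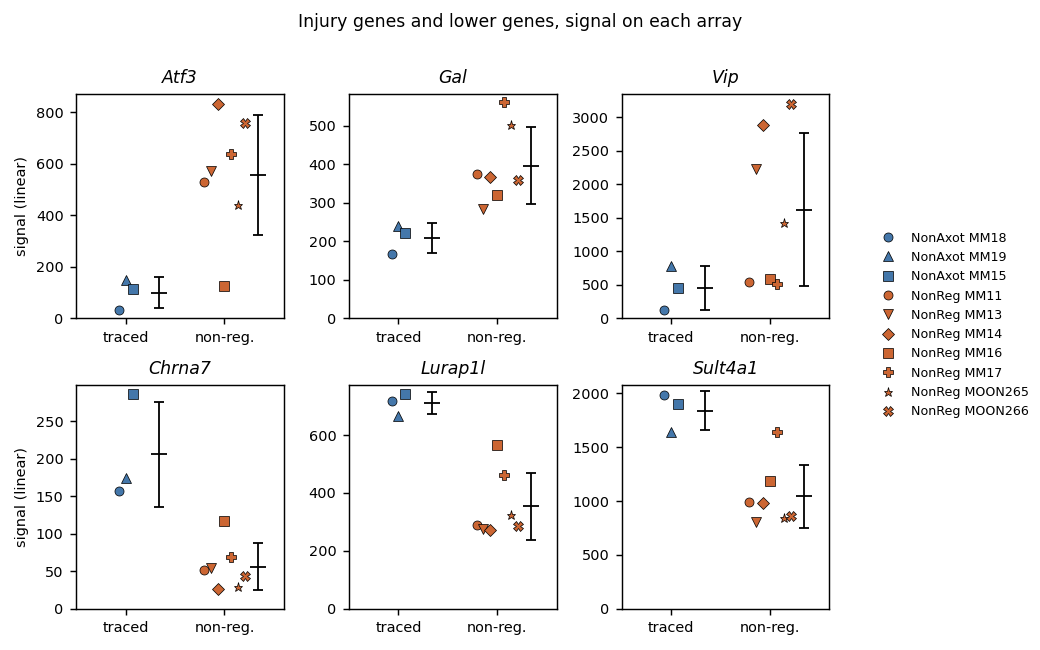
Signal (linear scale) of Atf3, Gal, Vip, Chrna7, Lurap1l and Sult4a1 on each array, with traced arrays in blue, non-regenerating arrays in orange, 1 symbol per rat, and mean and SD beside the points. Atf3 is at 123.3 in non-regenerating MM16 and at 441.5 or more in the other 6, and Chrna7 is at 117.6 or less in all 7, below the traced arrays.

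Receptors for acetylcholine and monoamines were the neuronal list furthest below the background. All 11 measured members were lower as deposited, with a median of -0.65, and of -0.29 with centred arrays, against -0.12 and 0.24 over all probe sets. Of the 11, 0 were called, 4 were lower and 0 higher at an unadjusted p under 0.05, 3 of them lower also with centred arrays, and 1 did not overlap. The list has 32 genes and 20 were too dim to be tested. Besides Chrna7, those lower at that p were Chrnb4, the beta 4 nicotinic subunit (-1.67, with 171 to 380 in the traced and 22.9 to 219.8 in the non-regenerating arrays), Chrm3, a muscarinic receptor (-1.26), and Drd2, the D2 dopamine receptor (-0.91). The background itself depended on brightness. With the filter at the 70th percentile, 9313 probe sets were tested and their median was 0.04, with 357 higher and 266 lower at an unadjusted p under 0.05 in limma. A background of the same brightness as this list was not tested.

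Other receptors and channels had few low p values. Glutamate receptors had a median of -0.30 over 12 members and 0.06 with centred arrays. Grm8, a presynaptic metabotropic receptor, gave -1.21, with 729 to 1304 in the traced and 185 to 906 in the non-regenerating arrays. GABA and glycine receptors had a median of 0.08 over 13 members, and Gabrg3, a GABA receptor subunit, gave -1.10 without overlap. Voltage-gated channels had a median of -0.09 over 30 members (0.27 with centred arrays), with 0 higher and 2 lower at an unadjusted p under 0.05, Hcn2, a pacemaker channel (-1.04), and Cacna1b, the N-type calcium channel (-0.57).

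Genes of synaptic vesicles and release had a median of -0.16 over 24 members (0.20 with centred arrays), with 4 lower and 0 higher at an unadjusted p under 0.05. Syn1, which encodes the vesicle protein synapsin, gave -1.79, with 648 to 1212 in the traced and 64.1 to 1224 in the non-regenerating arrays. Syt2 and Syt1, calcium sensors of release, gave -0.86 and -0.76, and Syp, synaptophysin, 0.75. Axon guidance and adhesion genes had a median of -0.05 over 33 members (0.31 with centred arrays), with 4 lower and 0 higher at that p, among them Epha3 (-0.80) and Cntn4 (-1.09), and 0 lower with centred arrays. Over all probe sets 7.61% were lower at that p. Neurotrophic factors and receptors had a median of -0.26 over 28 members (0.09 with centred arrays). Ret, the receptor kinase of GDNF signalling, gave 0.61, with 1397 to 2740 in the traced and 2009 to 4289 in the non-regenerating arrays, and Nrg1, neuregulin 1, -1.84.

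Cytoplasmic ribosomal protein genes had a median of 0.38 over 40 members, 39 of them above 0, and 0 were called. Without traced MM15, whose array has the words on high yield, the median was 0.09, against -0.17 over all probe sets in that fit. The 37 proteasome and ubiquitin genes had a median of 0.17, and -0.08 without traced MM15, against the same -0.17. Oxidative phosphorylation (0.07 over 31 members) and glycolysis (0.00 over 17) were near 0. Cholesterol synthesis and uptake genes had a median of -0.41 over 19 members (-0.05 with centred arrays), with 3 lower and 1 higher at an unadjusted p under 0.05. Srebf2, the factor that drives cholesterol synthesis, gave -0.76, the synthesis enzymes Nsdhl and Hsd17b7 -1.07 and -0.66, and Srebf1, which drives fatty acid synthesis, 0.63. None of these was called, and the counts lower were 0 with centred arrays.

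For stress genes the median was 0.08 over 35 stress response, chaperone and metallothionein genes, where Mt2A gave 1.71 and Hspa1a, the inducible heat shock protein, gave -1.28, with 480.0 to 669.9 in the traced and 101 to 523 in the non-regenerating arrays. Apoptosis and p53 genes had a median of 0.19 over 19 members. Casp4, an inflammatory caspase, gave 1.02 and Diablo, which releases caspases from inhibition, -0.66 without overlap. Cell cycle genes had a median of -0.07 over 23 members (0.29 with centred arrays). TGF-beta and BMP genes, Tgfbr1 included, had a median of -0.21 over 24 members (0.15 with centred arrays). Growth cone and axonal cytoskeleton genes had a median of 0.11 over 36 members, with Marcks, a substrate of protein kinase C at the membrane, at 0.63 without overlap.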

How the data were processed

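Signals were measured on Affymetrix rat arrays, 1 per sample. The authors made them with GCOS, per the submitters' processing notes (version not given in the sources used here), and deposited them as intensity values per probe set on a linear scale. The mean without the lowest and highest 2% was 200 to 200.1 on every array used, so values were used as deposited. No pair of arrays was identical (0 pairs).

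An offset of 16 was added before taking log2. Of 31099 probe sets, 57 controls were left out, as were 12417 dim ones, whose mean log2 signal over all 17 arrays was under the 40th percentile. The 18625 tested comprised 13224 with 1 symbol, 300 with several and 5101 with none. Only those with 1 symbol are named, from the platform table (20764 in the whole table were matched to RefSeq genes).

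Groups came from the titles. The 7 non-regenerating and 3 traced arrays were fitted with limma 3.58.1 in R 4.3.3 (lmFit, eBayes with trend), unpaired since the groups share no rat, with Benjamini-Hochberg adjustment over all tested probe sets. Since nothing in the labels describes the rats further, p-values measure the spread between these samples. Array measures were compared with two-sided exact permutation tests over 120 assignments. Lists used 1 probe set per gene, the brightest, and are described without a test of the list. The call procedure was also run on simulated data with independent noise in each probe set. Such data hold no differences between whole arrays, so nothing about the calls above is drawn from that run. Figures were drawn with Python 3.11.15, numpy 2.4.6 and matplotlib 3.10.9.

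The members, lists and naming rule were chosen with earlier results of these data known. Named were the called genes, the 15 higher and 15 lower genes with the smallest p (lower ones only where lower in 3 scalings), in each list up to 6 members ranked by p, and a set of markers and injury genes. Tmem119, Mrc1, Ptprc, Fgr and Syk, which fall outside this rule, were named after their values were seen. As alternatives, the replicate block, 3 prime bias, name prefixes, array weights, normalization, trend, offset and filter were varied, and each array was left out in turn.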

Additional observations from a re-analysis of the deposited data

Results flagged for a closer look

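In groups of 7, 8 of 128 sets of non-regenerating values had their highest or lowest array further from the rest than Dixon's test at 95% allows. Chance gives this in about 1 in 20 sets.

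Of these, 5 concern rat MM17. Its 100 brightest probe sets held 12.35% of the signal, the highest of its group, and its median correlation with the other arrays, 0.8549, was the lowest. MM17 was also the highest of the non-regenerating arrays in Zdhhc19 (99.6), the pacemaker channel Hcn2 (225.5) and the cholesterol synthesis enzyme Nsdhl (3228.9), 3 genes in which the other non-regenerating arrays were below all traced ones.

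The remaining 3 each concern another rat. Non-regenerating MM16 had the lowest signal of the injury factor Atf3, 123.3. MM11 had the highest signal of the unnamed called probe set 1385399_at, 171.4. MOON266 had the highest signal of Fabp7, a gene of radial glia and reactive astrocytes, 3035.8. The causes were not tested.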

How the results depend on the processing

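Of the 8 probe sets called higher, Cxcl13 and Plek were called in all 24 alternatives and Fcrl2 in 23. The number called higher was 17 under quantile normalization, 3 with an offset of 64, 5 without the filter (where 1 was lower), 16 with 3 prime bias as a covariate and 3 among MM rats alone, and with array weights 553 were higher and 1887 lower. With arrays left out one at a time it was 2 to 33 higher and 0 to 4 lower. The causes were not tested. The compared groups share no rat. With all 17 arrays and the animal as a replicate block, 23 were higher and 7 of the 8 calls were kept. In the other settings the number of calls was within 1.5 times the main one. Similar numbers did not always mean the same genes. Without both non-regenerating MM17 and traced MM15, 8 were called, and 4 of the 8 main calls were kept.

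The medians of the lists moved by less than their spread between arrays in 1009 combinations of list and setting and by more in 64. Among the genes whose differences are given above, signs of uncalled ones turned in 9 combinations, Rbfox3 not counted. Rbfox3 was above 0 in 4 of 24 alternatives, with 0.20 among MM rats alone and 0.006 with centred arrays. Under quantile normalization Mbp was -0.0048 and Slc17a6 -0.027. With centred arrays Stat3 was 0.074 and Mrc1 0.14, and Stat3 was 0.33 with prefixes of the rats' names in the model and without the MOON rats. Without non-regenerating MM17 and traced MM15, Jun was -0.15. With arrays left out one at a time, Jun ranged from -0.14 (without traced MM15) to 0.26 and Sprr1a from -0.14 (without traced MM18) to 0.62. The number of arrays, 3 of them traced, limits which differences could pass.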
